A study of Homo sapiens with 74 samples.

Results

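The nuclear genes of the respiratory chain were taken as the protein-coding hg38 genes outside the mitochondrial chromosome whose symbols start with NDUF, UQCR, ATP5 or COX followed by a digit from 4 to 8, together with SDHA, SDHB, SDHC, SDHD and CYC1. This rule found 99 of 20033 protein-coding genes in GENCODE 44. They comprise 37 subunits of complex I, 4 of complex II, 9 of complex III, 11 of complex IV and 17 of ATP synthase, with 8 complex I assembly factors named NDUFAF, 9 tissue isoforms or retrocopies, 2 supercomplex or regulatory factors and 2 readthrough genes. A gene was counted for a zinc finger protein (ZFP) when the edge of a Cut&Run peak lay within 1 kb of any of its annotated transcription start sites (TSSs).

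Complexes I to IV pass electrons from NADH and succinate to oxygen. Complexes I, III and IV pump protons across the inner mitochondrial membrane, and ATP synthase uses the proton gradient to make ATP. Most of the subunits are encoded in the nucleus by scattered genes, many of which have CpG-rich promoters with sites for NRF1, the ETS factor GABP, YY1 and SP1. Cut&Run cuts and releases the DNA around an antibody-bound protein, so a peak marks a place where the tagged protein, or something close to it, was more frequent than in the control.

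Peaks came from HEK293T cells, a transformed human embryonic kidney line, that carried for 48 h a plasmid with the V5-tagged open reading frame of 1 of 36 ZFPs, each with 2 replicate libraries. Un-transfected cells pulled down with the same V5 antibody, 2 mock IP samples, were the control, and their peaks were not analysed here. The ZFPs were expressed from the plasmid, so the binding sites are those of an exogenous tagged protein, and its level was not measured here. The 72 lists held 92122 peaks, from 15 to 8702 per list with a median of 631. The length of a list is no measure of sequencing depth, which was not given for single libraries. Before any other result, the lists were checked for peaks on the exons of the gene whose open reading frame the plasmid carried, since plasmid reads map there. For 32 of 36 ZFPs both lists had such a peak. U2AF1 and ZMAT5 lacked it in both lists, MBNL1 in the list of replicate 1 and TRIM55 in the list of replicate 2. These 4 ZFPs gave 4 of the 225 pairs of a ZFP and a respiratory chain gene, and leaving them out kept the number of genes with a peak at 65.

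Promoter sequence is shown for the 4 genes with peaks for the most ZFPs, with NDUFAF6 named only. Each run is hg38 sequence on the gene's strand, 5′ to 3′, with words of known promoter factors in capitals, and ends upstream of annotated untranslated exons. For ATP5ME, where an annotated transcript of the neighbouring gene MYL5 covers the whole window, 30 bases around the NRF1 word are shown.
NDUFV3, chr21:42893009-42893267, plus strand, bases -300 to -42 from the TSS, ATTGG (the CCAAT word reversed) and CCGCCC (the SP1 word reversed) in capitals: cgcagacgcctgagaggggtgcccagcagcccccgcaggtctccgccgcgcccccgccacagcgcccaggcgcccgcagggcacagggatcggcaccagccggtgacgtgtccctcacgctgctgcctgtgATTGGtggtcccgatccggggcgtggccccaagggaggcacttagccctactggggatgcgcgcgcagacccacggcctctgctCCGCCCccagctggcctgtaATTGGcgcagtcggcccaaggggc
NDUFAF3, chr3:49021821-49022007, plus strand, bases -300 to -114, the SP1 word in capitals: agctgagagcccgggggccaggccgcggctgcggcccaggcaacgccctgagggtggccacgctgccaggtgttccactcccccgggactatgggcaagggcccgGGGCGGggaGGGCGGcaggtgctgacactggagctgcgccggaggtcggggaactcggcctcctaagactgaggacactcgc
ATP5MC1, chr17:48892487-48892764, plus strand, bases -300 to -23, the YY1 word reversed, the CCAAT word and the CREB word in capitals: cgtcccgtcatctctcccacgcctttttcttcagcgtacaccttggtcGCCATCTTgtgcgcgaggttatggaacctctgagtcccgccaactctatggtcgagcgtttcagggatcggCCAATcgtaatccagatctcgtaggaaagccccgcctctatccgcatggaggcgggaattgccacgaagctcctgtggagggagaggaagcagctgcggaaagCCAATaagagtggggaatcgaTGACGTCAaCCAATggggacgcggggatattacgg
ATP5ME, chr4:674336-674365, minus strand, bases -89 to -60, the NRF1 word reversed in capitals: cgccgctgacgGCGCATGCgtgcgcccagc
ATP5MC1 held the CCAAT word at -181, -78 and -48 and a CREB word at -57, while NDUFAF3 held SP1 words at -195 and -186. A word is a match of letters and not a shown binding site.

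Respiratory chain promoters carried peaks about as often as protein-coding promoters as a whole. At least 1 ZFP had a peak at 65 of the 99 genes, which is 65.7%, against 55.7% of all protein-coding genes. In both replicates of at least 1 ZFP a peak was found at 13 genes, or 13.1%, against 16.6% of all protein-coding genes. A respiratory chain gene had a peak for a median of 1 ZFP and a mean of 2.27, and the median over all protein-coding genes was also 1, with a mean of 2.01. Summed over the 36 ZFPs, the share of respiratory chain genes with a peak was 1.13 times the share of all protein-coding genes, with 1.14 from the lists of replicate 1 alone and 1.02 from those of replicate 2 alone. The ratio was closer to 1 among CpG-rich promoters. Among the genes whose 300 bases around the TSS had a GC share of at least 55% and a CpG ratio of at least 0.6, 74.6% of 71 respiratory chain genes and 73.9% of 12419 protein-coding genes had a peak, and the summed ratio was 1.05. When a peak was given only to the gene whose canonical TSS was nearest to its summit, the summed ratio was 0.998. With canonical start sites alone the ratio was 1.21.

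The 36 ZFPs differed widely in how many of the 99 promoters they reached. At least 5 genes had a peak for 13 ZFPs, 1 to 3 genes for 9 ZFPs, and none for 14 ZFPs. The 14 ZFPs with none had 374 to 1652 peaks in both lists together and the 13 ZFPs had 1330 to 11335, so the lists that reached more promoters were mostly the longer ones. The library labelled TRIM55 replicate 2, which lacks a peak on TRIM55 exons, held 3244 of the 3358 TRIM55 peaks and both of its genes, while replicate 1 had 114 peaks and no gene. ZNF22, a C2H2 zinc finger protein, had the most with both lists joined, from 27 genes in replicate 1 and 10 in replicate 2. In replicate 2 alone APEX2, with 19 genes, and G2E3, with 11, had more than ZNF22. Joined, its lists covered 31 genes, or 31.3%, against 25.8% of all protein-coding genes, and the mean of its replicates was 18.7% ± 12.1 (SD, n = 2). The endonuclease APEX2 had 15 genes in replicate 1 and 19 in replicate 2, joined 28.3% against 27%. CISD1, an iron-sulphur protein of the outer mitochondrial membrane, had 25 and 8 genes, joined 26.3% against 27.6%. PHF7, a PHD finger E3 ligase, had 25 genes in replicate 1 and 1 gene in replicate 2, joined 25.3% against 23.4%. G2E3, another PHD finger E3 ligase, had 13 and 11 genes, joined 20.2% against 21.6%. Each list also has its own background. In replicates 1 and 2 ZNF22 had 27.3% against 23.9% of protein-coding genes and 10.1% against 6.6%. APEX2 had 15.2% against 18.9% and 19.2% against 16.4%, and CISD1 25.3% against 25.3% and 8.08% against 6.99%. PHF7 had 25.3% against 22.8% and 1.01% against 1.65%, and G2E3 13.1% against 12% and 11.1% against 14.7%. ZNF22 was thus above background in both replicates, while for APEX2, PHF7 and G2E3 the direction turned between replicates.

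A second tier of ZFPs reached fewer promoters. GIN1 had a peak at 13 genes in replicate 1 and 4 in replicate 2, joined 16.2% of respiratory chain genes against 13.8% of protein-coding genes. By list this was 13.1% against 10.5% in replicate 1 and 4.04% against 5.65% in replicate 2, so the direction turned. The insulator protein CTCF reached 10 genes in replicate 1 and 8 in replicate 2, joined 15.2% against 13.4%. Its direction turned too, with 10.1% against 10.8% in replicate 1 and 8.08% against 6.04% in replicate 2. CPSF4, a subunit of the machinery that cleaves and polyadenylates mRNA, had the largest ratio among the 13, with 15.2% against 8.05%. For 6 of the 36 ZFPs, CPSF4, SNRPC and ZC3H3 among them, the Cut&Run entry in the study's summary table is blank, so their lists may not be among the datasets that passed its quality control. The CPSF4 list of replicate 1 held 12 of 99 genes, 12.1% with an exact 95% binomial interval of 6.42% to 20.2%, against 6.3% of protein-coding genes. The list of replicate 2 held 3 genes, 3.03% with an interval of 0.629% to 8.6%, against 2.61%, so in the second library the shares were alike within counting error. TEX13A had 9.09% against 7.09%, ZMAT3 9.09% against 5.24%, RNF113A 7.07% against 4.68%, SNRPC 6.06% against 4.66% and ZC3H3 6.06% against 4.07%. TEX13A had 7 genes in replicate 1 and 2 in replicate 2. RNF113A had 7 and 1, and without a peak on its own exon, described with NDUFA1, 6 and 0, joined 6.06% against 4.67%. All genes of ZMAT3, SNRPC and ZC3H3 came from replicate 1. For ZMAT3 8 peaks gave 9 genes, and for ZC3H3 5 peaks gave 6. A peak of each counted for both NDUFC2 and its readthrough gene NDUFC2-KCTD14. The share was above background for 11 of the 13 ZFPs, and among CpG-rich promoters for 9 of the 13. These 13 were picked for having at least 5 respiratory chain genes, which favours shares above background. Both tallies are therefore partly set by that choice. The share was above background for 14 of all 36 ZFPs. Of all 36, the count was 9 from replicate 2 alone and 5 with only peaks that overlap between replicates. Canonical start sites alone gave 20. In 32 of the 33 lists with at least 1 respiratory chain gene the protein-coding share lay within the exact 95% interval of the respiratory chain share, and in 1 list it lay below. The intervals cover counting error only. In a list with 1 gene the interval ran from 0.0256% to 5.5%, which could hardly miss the low background of such lists. The tally therefore does not show equal shares.

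**Figure D1:**
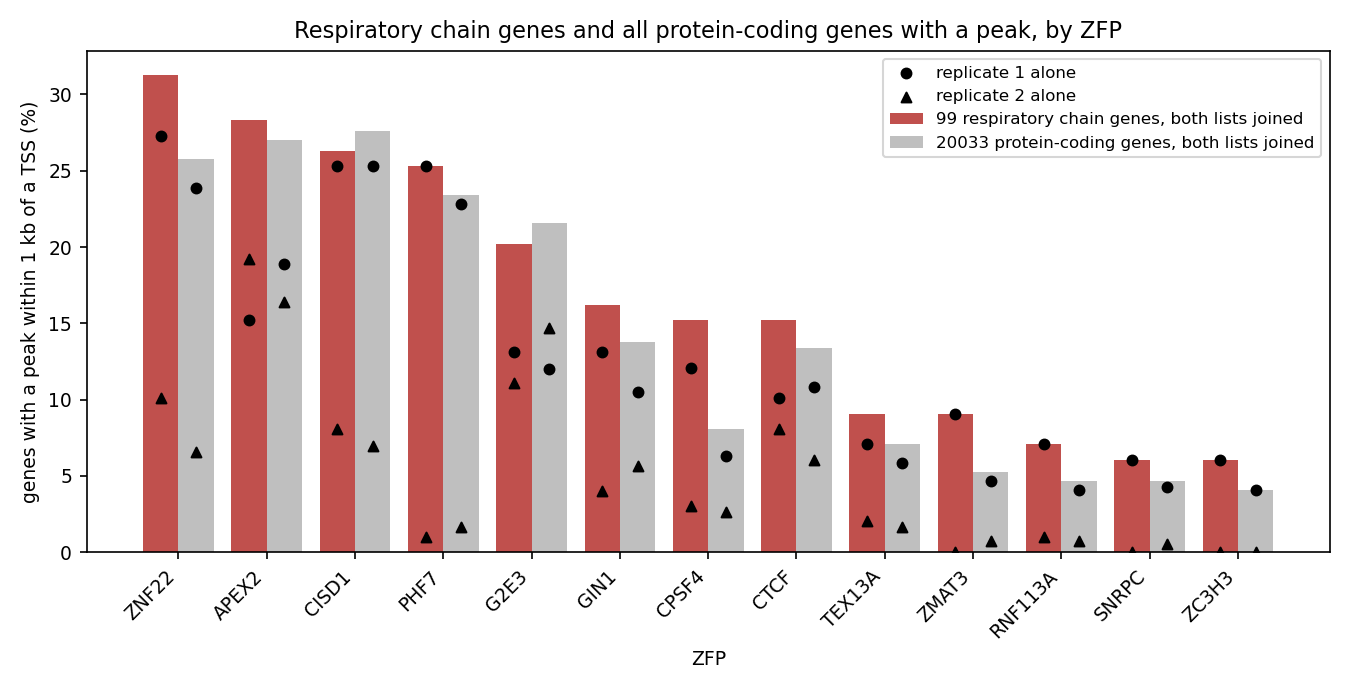
Share of genes, in percent, with a peak within 1 kb of a TSS for the 13 ZFPs with at least 5 respiratory chain genes. Red bars are the 99 respiratory chain genes and grey bars all 20033 protein-coding genes with both lists joined, and points are single replicates. Red and grey bars follow each other, from 31.3% and 25.8% for ZNF22 to 6.06% and 4.07% for ZC3H3, and 12 of 13 ZFPs have more genes in replicate 1.

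Agreement between replicates was low. Of the 225 pairs of a ZFP and a respiratory chain gene, 29 were found in both replicates, or 12.9%, against 16.1% of the 40309 pairs over all protein-coding genes, and in 23 of the 29 pairs the peaks of the replicates overlapped. CISD1 had 7 genes in both lists, 7.07% against 4.76% of all protein-coding genes. ZNF22 had 6 genes, 6.06% against 4.74%, and APEX2 6 genes, 6.06% against 8.27%. G2E3 had 4 genes, 4.04% against 5.09%, and CTCF 3 genes, 3.03% against 3.43%. GIN1 and PHF7 had 1 gene each, 1.01%, against 2.31% and 1.07% of protein-coding genes. The 1 gene of RNF113A, NDUFA1, 1.01% against 0.13%, was counted through a peak on the exon of RNF113A itself. Without peaks on the expressed ZFP's exons RNF113A had 0 genes in both replicates, against 0.12% of protein-coding genes, and 28 of 224 pairs, 12.5%, were found in both.

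The peaks of respiratory chain genes were of ordinary height. Fold enrichment, the library's signal over the mock IP at the summit, had a median of 5.23 at the 268 peaks and a quartile range of 4.5 to 6.03, against 5.08 at all 42678 promoter peaks, with peaks on the expressed ZFP's own exons left out of both. The highest fold was 11. The median fold was above that of the same list's other promoter peaks in 10 of 18 lists with at least 5 such peaks. Peaks were 276 bp wide in the median, as at all promoters, and 52.2% of the pairs of a peak and a gene had the peak over a TSS, against 49.2%. Summits lay around the start sites, 72.4% within 250 bp of the nearest TSS of the gene and at a median position of -30, with negative numbers upstream.

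Many of these promoters are shared with another gene. A protein-coding gene on the opposite strand starts within 1 kb of the canonical TSS of 30 of the 99 genes, 30.3%, against 10% of all protein-coding genes. Of the pairs of a peak and a respiratory chain gene, 55.6% had a second protein-coding gene within 1 kb, against 30.8% over all protein-coding genes, and in 70.4% the canonical TSS nearest to the summit was the gene's own, against 80.5%. Peaks at such promoters cannot be given to one of the genes, so for the leading genes the neighbour is named beside the count.

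Over all protein-coding genes, 55.7% had a peak, with a mean of 2.01 ZFPs per gene, and the complexes lay on both sides of these values. All 4 genes of complex II, succinate dehydrogenase, had a peak, for a mean of 4.75 ZFPs per gene, and 14 of 17 ATP synthase genes had one, with a mean of 3.41. Complex III followed with 6 of 9 genes and a mean of 2.44 ZFPs. For complex I, 24 of 37 subunit genes had a peak, with a mean of 1.76, and 6 of 8 NDUFAF assembly factors, with a mean of 4. Complex IV, cytochrome c oxidase, had the fewest, 5 of 11 genes with a mean of 0.909 ZFPs. None of the 4 genes of complex II and the 11 of complex IV, tissue isoforms such as COX6B2 set apart, had a peak in both replicates of any ZFP, while 16.6% of all protein-coding genes had one. Tissue isoforms and retrocopies had a peak at 3 of 9 genes, and COX6B2 had one in both replicates of ZNF22 and of PHF7. Counting for each gene only peaks with its own canonical TSS nearest to the summit, the means were 2.25 for complex II, 2.47 for ATP synthase, 2.44 for complex III, 1.19 for complex I subunits, 2.75 for the NDUFAF genes and 0.727 for complex IV, against 1.68 over all protein-coding genes. In complex II, 3 ZFPs at SDHA had summits nearest to the protein-coding entry ENSG00000286001, and 1 at SDHD to ENSG00000255292. Such ZFPs do not enter the mean of 2.25. The groups are small, and their genes were not tested against each other.

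**Figure D2:**
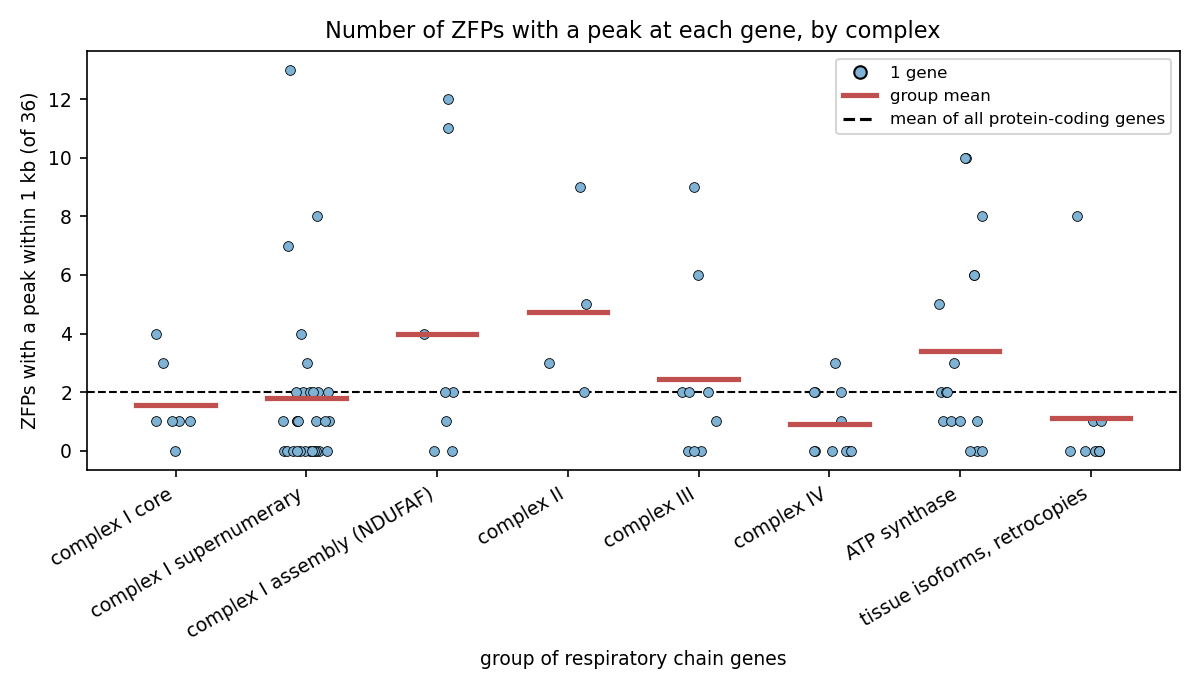
Number of ZFPs, of 36, with a peak within 1 kb of each respiratory chain gene, by complex, without the 2 supercomplex or regulatory factors and 2 readthrough genes. Each point is a gene, red lines are group means and the dashed line is the mean of 2.01 over all protein-coding genes. Means run from 0.909 for complex IV to 4.75 for complex II, and single genes with 8 to 13 ZFPs stand above most of their groups.

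Catalytic and core subunits ranged from no ZFP to 9. Among core subunits of complex I, NDUFV1, which binds NADH and the flavin cofactor, had a peak for 4 ZFPs, NDUFS3 for 3, and NDUFS1, NDUFS8 and NDUFV2 for 1 each, while NDUFS7 had none. KBTBD4 starts 104 bp from NDUFS3 and EEF1B2 451 bp from NDUFS1 on the other strand, and 1 of the 3 ZFPs of NDUFS3 had its peak nearest to PTPMT1. None of these subunits had a peak in both replicates of a ZFP. CYC1 and UQCRFS1, cytochrome c1 and the Rieske protein of complex III, had peaks for 2 ZFPs each. COX5A had peaks for 3 ZFPs and COX5B for none, while both ZFPs at COX4I1 had peaks nearer to the start of EMC8. ATP5F1B, the catalytic beta subunit of ATP synthase, had peaks for 2 ZFPs, and the peak counted for ATP5F1A, the alpha subunit, lay at an alternative start site nearest to HAUS1, with its summit at -6025 from the canonical TSS. SDHA and SDHB, the flavoprotein and iron-sulphur subunits of succinate dehydrogenase, had peaks for 9 and 5 ZFPs, of which 2 and 5 had a summit nearest to the gene's own canonical TSS.

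With both replicates joined, the gene with peaks for the most ZFPs was NDUFV3. It had a peak for 13 ZFPs, which 0.404% of protein-coding genes equalled or passed, NDUFAF6 for 12 (0.799%), NDUFAF3 for 11 (1.36%), and ATP5MC1 and ATP5ME for 10 each (2.25%). At least 10 ZFPs had a peak at 5 respiratory chain genes, 5.05%, against 2.25% of all protein-coding genes, and at least 5 ZFPs at 17 genes, 17.2%, against 16.4%. The order turned in the lists of replicate 2 alone. There NDUFAF3 had 6 ZFPs, ATP5MC1 and ATP5ME 5 each, and NDUFV3 and NDUFAF6 4 each. Both replicates were then taken with only peaks that had the gene's own canonical TSS nearest to the summit. The counts were 11 ZFPs for NDUFAF3, 10 for ATP5MC1, 9 for NDUFV3, 5 for ATP5ME and 3 for NDUFAF6. By that count 2 respiratory chain genes, 2.02%, had at least 10 ZFPs, against 1.5% of all protein-coding genes. The next were UQCRC1 and SDHA with 9 ZFPs, and COX6B2, NDUFA6 and ATP5PD with 8. Of the 98 pairs of a ZFP and one of these 10 genes, 49 came from the 5 ZFPs with the most peaks, CISD1, APEX2, ZNF22, G2E3 and PHF7. The same 5 ZFPs also reached the most protein-coding genes, from 21.6% for G2E3 to 27.6% for CISD1. The 10 genes were picked for their number of ZFPs, so the 49 pairs are no particular trait of them.

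**Figure D3:**
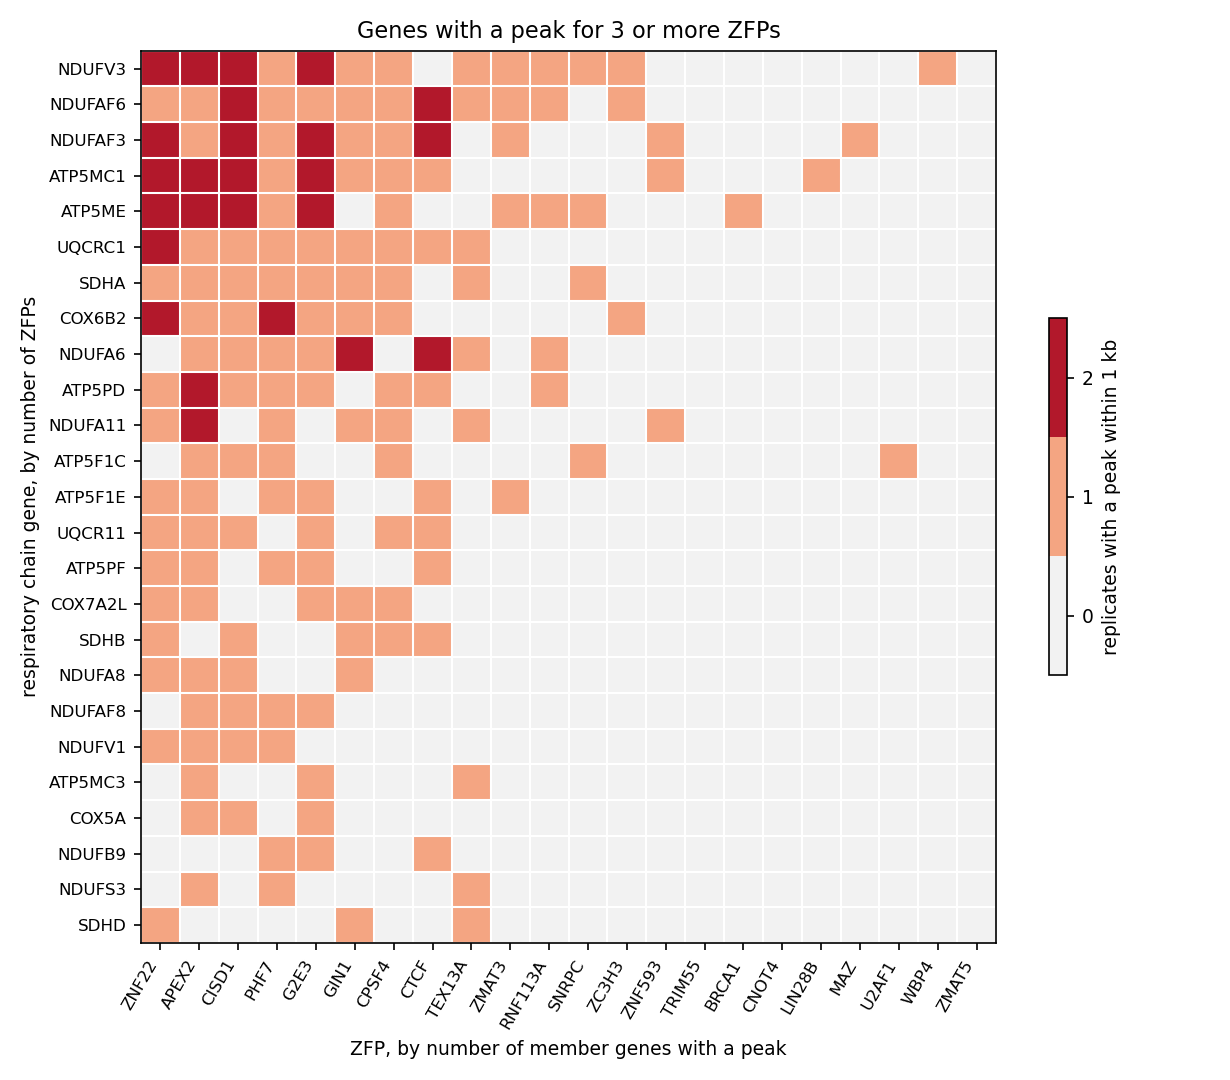
Respiratory chain genes with a peak for 3 or more ZFPs, by the 22 ZFPs with a peak at any of the 99 genes. Pale squares are no peak, orange squares a peak in 1 replicate and dark red squares a peak in both. The replicate peaks of NDUFV3 under G2E3 lie at different start sites. Dark squares lie mainly at NDUFV3, NDUFAF3, ATP5MC1 and ATP5ME under ZNF22, APEX2, CISD1 and G2E3.

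ATP5MC1 encodes a c subunit of the membrane ring of ATP synthase and starts at position 48892787 of chromosome 17, with no opposite-strand gene within 1 kb. All 14 of its peaks had their summit upstream of the canonical TSS, from -377 to -27 with a median of -155, mostly over the stretch printed above. ZNF22 had folds of 6.31 in replicate 1 and 5.89 in replicate 2, with summits at 48892433 and 48892486. APEX2 had folds of 4.45 and 7.7, CISD1 of 5.03 and 5.87, and G2E3 of 6.1 and 7.63, and for each of the 4 ZFPs the replicate peaks overlapped. CPSF4, CTCF, GIN1, LIN28B and PHF7 had a peak in replicate 1 alone and ZNF593 in replicate 2 alone, with folds from 5.16 to 6.51.

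NDUFAF3 encodes an assembly factor of complex I and starts at position 49022121 of chromosome 3. Its 15 peaks had summits from -512 to -94, with a median of -263, and every peak also lay within 1 kb of a TSS of DALRD3. The highest folds among respiratory chain genes were found here. CTCF had folds of 6.94 in replicate 1 and 11 in replicate 2, with summits at 49021877 and 49021852. ZNF22 had folds of 10.7 and 8.71, PHF7 9.69 in replicate 1 and APEX2 10.5 in replicate 2. CISD1 lay lower, at 4.3 and 3.99, and G2E3 at 5.78 and 4.88. CTCF and ZNF22 were above both lists of CISD1 and of G2E3 in each of their replicates.

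NDUFV3, a small accessory subunit of complex I with a tissue-dependent splice form, has 4 annotated start sites on chromosome 21. At its canonical promoter, at 42893309, 9 ZFPs had 13 peaks, with summits from -391 to 162 and folds of 4.06 to 6.89. The other 14 peaks, of 11 ZFPs, had summits between 42879084 and 42879524, about 14 kb upstream, where an alternative start site of NDUFV3 lies beside the promoter of WDR4. At the canonical promoter CISD1 had folds of 6.89 and 5.5 and ZNF22 of 6.3 and 4.06 in replicates 1 and 2. ZMAT3, SNRPC, WBP4 and ZC3H3 had a peak at the upstream site alone.

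NDUFAF6 showed the same split more strongly. Only 3 ZFPs, CISD1, CTCF and RNF113A, had a peak at its canonical TSS, at 95024989 of chromosome 8, with folds from 4.11 to 5.74. Nearest to CCNE2 lay 11 peaks of 9 ZFPs and nearest to TP53INP1 3 peaks of 3 ZFPs, at distal start sites annotated to NDUFAF6. Counting canonical start sites alone lowered NDUFAF6 from 12 ZFPs to 3 and NDUFV3 from 13 to 9, and left NDUFAF3, ATP5MC1 and ATP5ME at 11, 10 and 10.

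ATP5ME, the e subunit of ATP synthase, starts at 674276 on the minus strand of chromosome 4, 266 bp from MYL5 on the other strand. Of its 15 peaks, 6 lay nearer to ATP5ME and 9 nearer to MYL5. At position 674360, which is -84 from the TSS and 6 bases upstream of the capitals in the run printed above, 5 ZFPs shared a summit to the base. APEX2 had a fold of 6.24 there in replicate 1, CISD1 of 8.15 in replicate 1, G2E3 of 4.8 in replicate 2, SNRPC of 4.09 and ZMAT3 of 4.56 in replicate 1. Summits shared to the base by at least 3 ZFPs made up 1.87% of the peaks at respiratory chain genes, all 5 of them at ATP5ME, and 0.665% of all promoter peaks.

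Among the other leading genes UQCRC1, a core protein of complex III, had peaks for 9 ZFPs, all nearest to its own canonical TSS, with folds of 4.47 to 6.83. ZNF22 was the ZFP with a UQCRC1 peak in both replicates, at 6.27 and 5.84. SDHA had peaks for 9 ZFPs, each in 1 replicate, with folds of 4.18 to 7.45. CCDC127 starts 167 bp from SDHA on the other strand. The canonical TSS nearest to the summit was that of SDHA for 2 of the 9 ZFPs and that of CCDC127 for 4. For the other 3, CISD1, PHF7 and SNRPC, it was that of the protein-coding entry ENSG00000286001, with summits at -76 to -40 from SDHA. NDUFA6, an accessory subunit of complex I, had peaks for 8 ZFPs. Its CTCF peaks had folds of 10.2 and 4.72 in replicates 1 and 2, and its GIN1 peaks 5.25 and 4.94 at places that did not overlap. ATP5PD, in the peripheral stalk of ATP synthase, had peaks for 8 ZFPs, and APEX2 had one in both replicates at 5.09 and 6.41. KCTD2 starts 256 bp away on the other strand.

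COX6B2, the testis form of a complex IV subunit, stood apart from the other tissue isoforms, with peaks for 8 ZFPs. All 10 summits lay inside the gene, 417 to 682 bp downstream of its canonical TSS on chromosome 19, and none of the peaks covered a start site. ZNF22 had folds of 9.72 and 5.2 and PHF7 of 3.83 and 5.68 in replicates 1 and 2, and the peaks of each pair overlapped. COX4I2 and NDUFA4L2 had a peak for 1 ZFP each, GIN1 and ZNF22. No list had a peak at COX6A2, COX7A1, COX7B2, COX8C, UQCRHL or ATP5MGL.

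**Figure D4:**
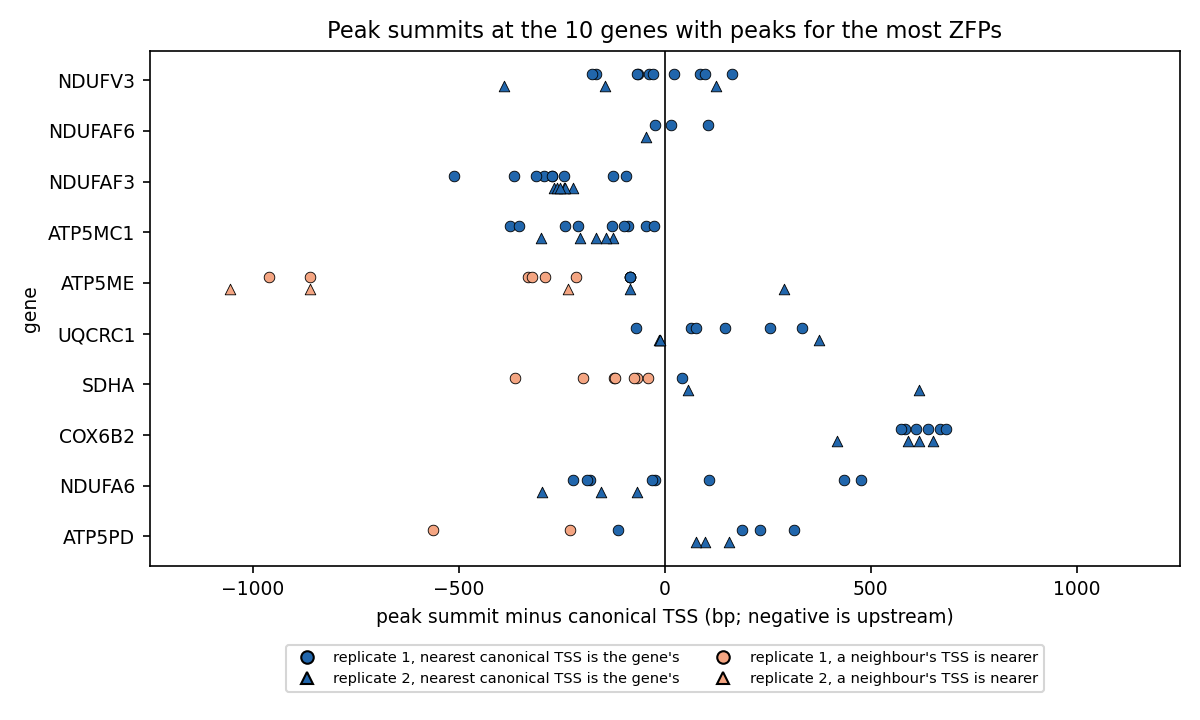
Summits of peaks within 1200 bp of the canonical TSS, in bp with negative numbers upstream, at the 10 genes with peaks for the most ZFPs. Circles are replicate 1 and triangles replicate 2, and orange points have a neighbour's canonical TSS nearer. ATP5MC1 and NDUFAF3 summits lie upstream, COX6B2 summits lie 417 to 682 bp downstream, points at -84 of ATP5ME coincide, and the distal peaks of NDUFV3 and NDUFAF6 lie outside the plot.

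NDUFA1, on the X chromosome, starts 99 bp from RNF113A on the other strand. In the RNF113A libraries the peak counted for NDUFA1 had folds of 4056 and 4035 and covered the exon of RNF113A, where plasmid reads map, so it is no measure of binding. Without it RNF113A had no respiratory chain gene in both replicates. CISD1 also had a peak at NDUFA1 in both replicates, at 6.39 and 5.42, with the TSS of RNF113A nearest to the summits.

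**Figure D5:**
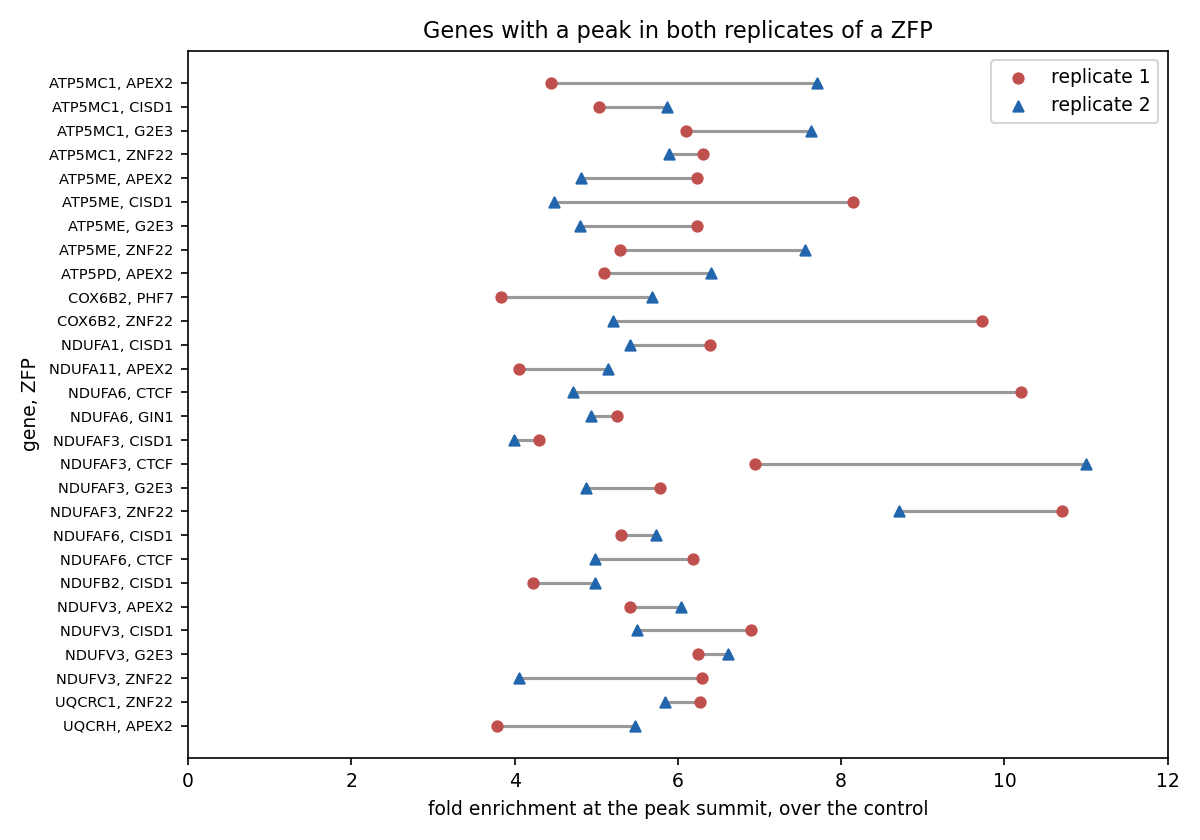
Fold enrichment over the mock IP at the 28 pairs of a gene and a ZFP with a peak in both replicates, without the RNF113A pair of NDUFA1. Circles are replicate 1 and triangles replicate 2, taking the higher fold where a list had several peaks. For NDUFV3 under G2E3 and NDUFAF6 under CTCF the plotted folds come from different start sites of the gene. Most pairs lie between 4 and 8, and NDUFAF3 under ZNF22 is the pair with both folds above 8, at 10.7 and 8.71.

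No ZFP had a peak at 34 of the 99 genes, 34.3%, against 8869 of 20033 protein-coding genes, 44.3%. The 34 genes belong to every complex except complex II. They include NDUFS4, NDUFS6 and NDUFS7 of complex I, UQCRB, UQCRC2 and UQCRQ of complex III, COX5B, COX6B1, COX7B, COX7C and COX8A of complex IV, and ATP5MF, ATP5MG and ATP5PO of ATP synthase.

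Words of promoter factors were searched as exact letters on both strands from 250 bases before to 50 after the canonical TSS of each gene. The NRF1 word GCATGCGC stood in 15.2% of the 99 promoters and in 4.27% of all protein-coding promoters, the YY1 word AAGATGGC in 17.2% and 4.04%, and the ETS word CCGGAAG in 26.3% and 14.1%. The CCAAT word of NFY stood in 32.3% and 36.1%, the SP1 word GGGCGG in 60.6% and 61.3%, the CREB word TGACGTCA in 5.05% and 2.69%, the ZNF143 word ACTACAAT in 1.01% and 0.669%, and TATAAA in 6.06% and 9.71%. No word of the list contains another. Among the 17 genes with peaks for at least 5 ZFPs and the 34 genes with none, in this order, the SP1 word stood in 76.5% and 38.2%, against 81.8% and 41.9% of the same classes over all protein-coding genes. The YY1 word stood in 23.5% and 20.6%, against 5.08% and 2.47% over all protein-coding genes, and the NRF1 word in 23.5% and 11.8%, against 8.25% and 2.11%. The CREB word stood in 3 of the 17 promoters, 17.6%, and in 0 of the 34, against 3.74% and 1.84%. The word AGGGGGC from the core of the CTCF motif, chosen after the peaks were seen, stood in 1 of 19 windows of 300 bases around CTCF summits at respiratory chain genes, 5.26%, against 26.9% of the 3032 CTCF peaks at protein-coding promoters and 18.9% of all promoter windows. The promoter windows of the respiratory chain genes themselves held it in 9 of 99, 9.09%.

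Other genes of oxidative metabolism were described in the same way. Of 96 genes in lists of assembly factors outside the rule, coenzyme Q and cytochrome c, the tricarboxylic acid cycle and regulators of mitochondrial biogenesis, 72 had a peak, 75% against 55.7% of all protein-coding genes, for a mean of 3.36 ZFPs, and 32 had one in both replicates of a ZFP, 33.3% against 16.6%. Their promoters were CpG-rich at 82 of 96 genes, against 71 of the 99 respiratory chain genes, and the CpG-rich genes had a mean of 3.59 ZFPs, against 2.94 for those of the respiratory chain and 2.81 for all protein-coding genes. Factors that assemble complexes II and III had a mean of 3.92 ZFPs, those of complex IV 3.05, those of ATP synthase 4.6, and those of complex I outside the NDUFAF genes 0.727. The highest counts were 11 ZFPs each at CYCS, which encodes cytochrome c, at FMC1, an assembly factor of ATP synthase, and at SUCLA2 of the citric acid cycle. Genes of coenzyme Q and cytochrome c had a mean of 4.2, those of the citric acid cycle 3.64, and regulators such as TFAM, with 8 ZFPs, 3.75. Mitochondrial ribosomal protein genes had a peak at 58 of 78 genes with a mean of 2.56 ZFPs, cytosolic ribosomal protein genes at 56 of 86 with a mean of 2.37, and proteasome genes at 36 of 50 with a mean of 2.34. These values are descriptions, and the lists were not tested against the respiratory chain genes.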

How the data were processed

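Cut&Run peak lists of 36 ZFPs, 2 replicates each, were used, grouped by the ZFP and replicate in their labels. The submitters' processing notes name Trimmomatic 0.36, Bowtie2 2.3.5.1, Picard and MACS2 2.2.7.1. Each library was called on its own on hg38 against a V5 mock IP. The fold, a ratio over the control at the summit, and the −log10 p and q values were deposited by the authors. Read totals of single libraries: not given in the sources used here. Here, peaks were joined to all GENCODE 44 start sites, both replicates joined or taken singly, with Python 3.11.15, pandas 2.3.3, numpy 2.4.6, scipy 1.17.1 and matplotlib 3.10.9. Peaks on several genes counted for each. The join was tested on simulated data, where it found every pair. No model was fitted, and shares are descriptions beside all protein-coding genes. Named genes were the 10 with the most ZFPs, the 2 with the highest lower fold for each ZFP with at least 5 genes in both replicates, core subunits and tissue isoforms. Members and lists were chosen with earlier results of these data known. Alternatives covered distance, start sites, thresholds, replicates, ZFPs and background. Mitochondrial genes were left out by the rule. Some single-gene values are not reported here.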

Additional observations from a re-analysis of the deposited data

Results flagged for a closer look

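The mitochondrial chromosome, which encodes the other subunits of complexes I, III, IV and ATP synthase and lies outside the rule for nuclear genes, carried peaks in 45 of the 72 lists. This is a signal in data that the comparisons above do not use. There were 319 such peaks, for 26 of 36 ZFPs and for 19 ZFPs in both replicates, with at most 15 in a list. Their folds were low, with a median of 1.74, a lowest value of 1.25 and a highest of 24.8. Peaks overlapped MT-CO2 in 39 lists, MT-ND1 in 38 and MT-ND4 in 37, with median folds of 1.83, 2.05 and 1.76. Of the 14 ZFPs with no peak at a nuclear respiratory chain gene, 6 had mitochondrial peaks. Mock IP peaks were not analysed here, so no level in a control can be set beside these counts, and their cause was not tested.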

How the results depend on the processing

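Of 65 comparisons of the main values with an alternative, 54 stayed within 1.5 times the count or within 1 SD between replicates, and 11 moved. The SD of the ZNF22 share was wide, at 12.1. Its fall from 31.3% to 20.2% at a −log10 q of at least 3 therefore counts among the 54. Most of these 11 came from the replicates. Without replicate 1 or replicate 2, genes with a peak numbered 38 to 61, ZFPs above background 9 to 14, the ZNF22 share was 10.1% to 27.3% and the summed ratio 1.02 to 1.14. With only peaks that overlap a peak of the other replicate, these were 11 genes, 5 ZFPs, 5.05% and a ratio of 0.907, which turns it below 1. Genes with a peak in both replicates fell from 13 to 8 where the peak must cover the TSS and to 7 at a −log10 q of at least 3. The ratio was 0.998 where the nearest canonical TSS must be the gene's own, an alternative chosen after seeing the data, as were those without peaks on the expressed ZFP's exons and without the 4 ZFPs that lack such peaks. Other alternatives moved values up: canonical start sites alone gave a ratio of 1.21 and 20 ZFPs above background, and subunits only gave 18 ZFPs. A distance of 5 kb, a fold of at least 4, subunits only and the 30 ZFPs with a Cut&Run entry in the study's summary table kept all 5 main values within these bounds, and so did CpG-rich promoters for the 3 values computed with them, ZFPs above background, the ZNF22 share and the summed ratio. At the 10 leading genes 88 of 120 counts stayed within 1.5 times and 32 moved, 10 of them without replicate 1 and 10 with overlapping peaks only, while COX6B2 fell to 0 where the peak must cover the TSS and SDHA to 0 with overlapping peaks only. No paired analysis was made, because no result came from a test. Replicate 1 gave 179 of the 225 pairs and replicate 2 gave 75, and the part of list length in this was not tested.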
